A study of Homo sapiens with 40 samples.

Results

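The antimycin A response of the HEK293T line labelled sgSLC25A12 SLC25A12-WT was followed across the transcriptome. The 8 libraries were taken from 40 by their labels, 4 from cells given antimycin A and 4 from cells given vehicle. HEK293T is an established line from human embryonic kidney. All 5 lines of the study were treated for 6 hours with 40 nM antimycin A or with vehicle, which the labels call normal, with 4 libraries in each of 10 groups. In the label, sgSLC25A12 stands for a knockout of SLC25A12 and SLC25A12-WT for the wild-type cDNA put back. Reference lines were wild-type cells with vector (WT-vector cells) and SLC25A12 knockout cells with vector (KO-vector cells). Knockout cells labelled SLC25A12-F137S are F137S cells below, and those that also carry dMTS-DELE1 are dMTS-DELE1 cells. The labels do not say whether a line is 1 clone, which promoter drives a cDNA, or whether the biological replicates are separate cultures, so p-values measure the spread between these libraries.

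SLC25A12 encodes a carrier of the inner mitochondrial membrane that exports aspartate in exchange for glutamate and forms part of the malate-aspartate shuttle, which moves reducing equivalents into mitochondria. Antimycin A blocks respiratory complex III, so that electrons back up along the chain and respiration stops. A block of this kind is known to activate OMA1, a protease that cleaves DELE1, which then binds the kinase HRI (EIF2AK1). HRI phosphorylates eIF2, which slows protein synthesis while it favours translation of ATF4, the main transcription factor of the integrated stress response (ISR). ATF4 raises genes for amino acid supply, tRNA charging and stress regulation.

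The 8 libraries carried SLC25A12 mRNA at the level of wild-type cells. Counts per 1e6 counts (CPM) were 31.4, 30.2, 29.9 and 28.2 under antimycin and 38.9, 38.4, 38.9 and 39.2 in vehicle. Vehicle means were 38.9 ± 0.330 CPM in the labelled cells, against 38.7 ± 1.82 CPM in WT-vector cells and 3.08 ± 0.231 CPM with the knockout and vector (SD, n = 4 each). The labelled cells therefore stood 3.65 ± 0.05 above KO-vector cells on the log2 scale (± standard error, adjusted p = 3.86e-64) and 0.01 ± 0.03 above WT-vector cells (adjusted p = 1). Cells given another SLC25A12 cDNA held far more of it, with vehicle means of 1853 CPM for F137S cells and 3716 CPM for dMTS-DELE1 cells.

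A set of 13 other genes that separate KO-vector from WT-vector cells was chosen from earlier results of these data, so it describes the lines and tests nothing. HAS2, which makes hyaluronan, stood at 25.5 CPM in labelled, 23.7 in WT-vector and 0.876 in KO-vector cells in vehicle. CASP8, the initiator caspase of death receptors, stood at 30.8, 29.9 and 4.21 CPM in the same order, and the collagen receptor DDR2 at 37.8, 37.2 and 6.22 CPM. Genes high in KO-vector cells were low in the labelled cells. KIF1A, an axonal kinesin, stood at 23.2 CPM in labelled, 23.2 in WT-vector and 113 in KO-vector cells, and the pseudogene DBIL5P at 1.43, 1.66 and 181 CPM.

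**Figure D1:**
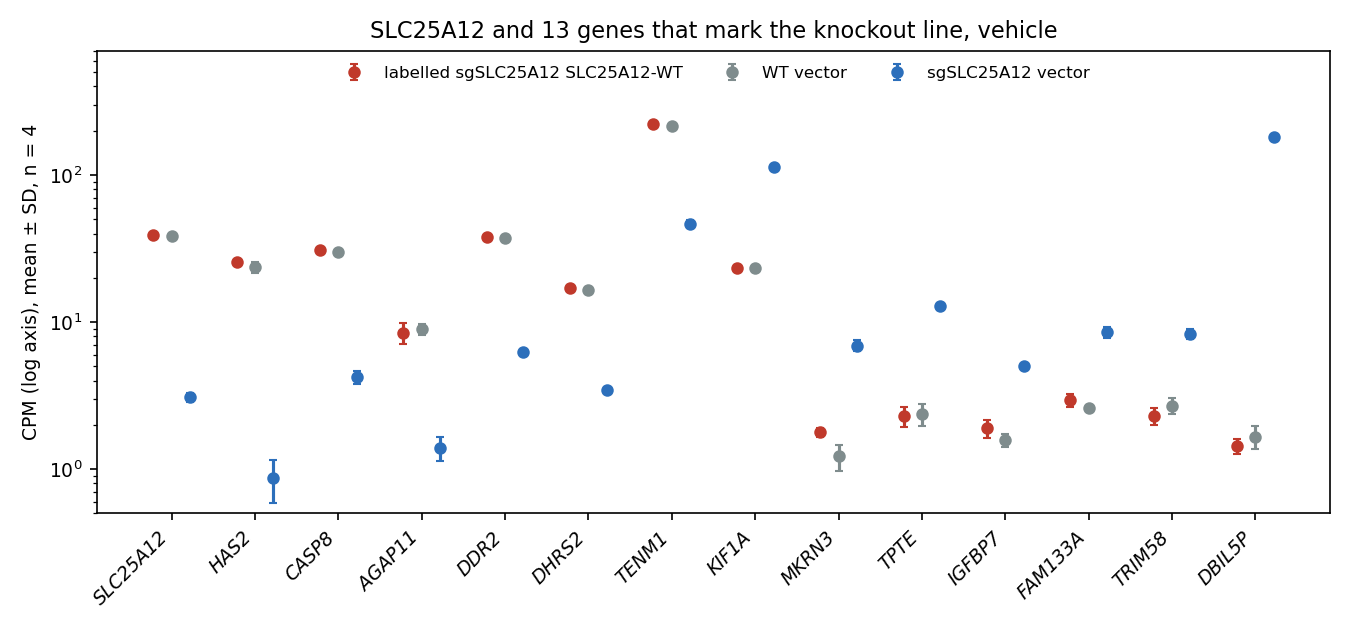
Level of SLC25A12 and of 13 other genes in vehicle, in CPM on a log axis, as the mean ± SD of 4 libraries for the labelled SLC25A12-WT line, WT-vector cells and sgSLC25A12 vector (KO-vector) cells. For every gene shown the labelled line lies at or near the WT-vector points, as for SLC25A12 at 38.9 against 38.7 CPM, and away from the KO-vector point at 3.08 CPM.

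The same held across all genes. Between labelled and WT-vector cells in vehicle, 0 of 16739 tested genes (0%) differed at an adjusted p < 0.05 in edgeR's quasi-likelihood test. There were 778 genes at an unadjusted p < 0.05, and DESeq2's Wald test called 0. Between labelled and KO-vector cells in vehicle, 8004 genes (47.8%) differed, 4227 higher (25.3%) and 3777 lower (22.6%) in the labelled cells. The squared differences between single libraries were 2.15 to 2.98 times the Poisson value for labelled against WT-vector libraries in vehicle. Pairs of libraries within the labelled vehicle group gave 2.16 to 2.93, and labelled against KO-vector libraries 12.8 to 13.9, over 13165 genes with a mean of at least 50 counts. Even values made up 55.6% to 58.5% of counts of 1 to 20 in the labelled vehicle libraries, so the Poisson value need not be the floor. How alike repeats of 1 library would be was not tested. The data thus go against the label of an added SLC25A12 cDNA in knockout cells, and the samples are called the libraries labelled SLC25A12-WT, or the labelled cells, and not a rescue.

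Library totals, in units of 1e6 counts, were 30.9 to 31.0 under antimycin and 30.8 to 30.9 in vehicle. Genes known from HEK293 cells were present: NEFL, NEFM, INA, PAX2, LHX1 and SIX2, 6 of 6 with counts, summed to 331 to 355 CPM under antimycin and 399 to 422 CPM in vehicle. Of 8 markers of mature kidney, 5 had counts in each group and the sum was at most 0.972 CPM, with UMOD at 0. Of 9 markers of fibroblasts, endothelium and blood, 7 had counts in each group, and the sum was 2.55 to 3.69 CPM under antimycin and 1.72 to 2.60 CPM in vehicle, with HBB at 0. Their part in the results below was not tested.

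Antimycin changed about as many genes upward as downward in the labelled cells, most of them by little. Of 16739 tested genes, 8760 (52.3%) had an adjusted p < 0.05 for antimycin against vehicle. Of all tested genes, 25.9% rose (4340) and 26.4% fell (4420), and 3.26% (546) changed at least 2-fold. The median log2 fold change over all genes was 0.01, and the median of its size was 0.20. For 46.4% of genes the 4 antimycin libraries did not overlap the 4 vehicle libraries. Counts of gene lists below are to be read against these shares.

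The transcription factors of the ISR rose. Of 9 such factors, 8 rose and 1 fell, with a median log2 fold change of 0.88, against 0.01 over all genes. ATF4 mRNA was at 771, 762, 765 and 756 CPM under antimycin and at 590, 605, 597 and 591 CPM in vehicle, so the groups were apart although the change was small (0.36 ± 0.02, adjusted p = 2.7e-30). ATF3, a repressor and activator induced by many stresses, was at 86.2, 86.4, 87.0 and 89.1 CPM under antimycin and at 30.2, 28.1, 27.1 and 29.4 CPM in vehicle. It was about 3-fold higher in every antimycin library (1.60 ± 0.04, adjusted p = 4.22e-48).

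DDIT3, which encodes the pro-apoptotic factor CHOP, was at 24.4, 21.9, 22.8 and 24.8 CPM under antimycin and at 13.3, 13.6, 10.7 and 13.4 CPM in vehicle (0.88 ± 0.07, adjusted p = 1.05e-19). CEBPG, a dimer partner of ATF4, rose by 0.68 ± 0.03, and CEBPB, another C/EBP factor, by 0.88 ± 0.07. JDP2, a relative of ATF3, rose by 1.46 ± 0.09 and NUPR1, a small stress-induced chromatin protein, by 1.22 ± 0.15. TRIB3, a pseudokinase that restrains ATF4 and AKT, rose by 0.41 ± 0.05. The exception was ATF5, a factor tied to the mitochondrial unfolded protein response, which fell to 20.9, 18.3, 20.6 and 16.9 CPM under antimycin, against 24.2, 25.9, 27.3 and 26.4 CPM in vehicle (-0.44 ± 0.06, adjusted p = 1.72e-10).

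ATF4 and C/EBP proteins are known to bind a composite element with the core TGATGNAA. The promoters of 4 ISR genes that hold it are shown because these genes rose under antimycin. They come from RefSeq (build GRCh38.p14) and are the 250 bases before the gene start, 5′ to 3′ on the gene's strand, with the match in capitals. CHAC1 lies at chr15:40953221-40953470 on the plus strand, ASNS at chr7:97872409-97872658 on the minus strand, ATF3 at chr1:212565157-212565406 on the plus strand and AARS1 at chr16:70289507-70289756 on the minus strand.
CHAC1: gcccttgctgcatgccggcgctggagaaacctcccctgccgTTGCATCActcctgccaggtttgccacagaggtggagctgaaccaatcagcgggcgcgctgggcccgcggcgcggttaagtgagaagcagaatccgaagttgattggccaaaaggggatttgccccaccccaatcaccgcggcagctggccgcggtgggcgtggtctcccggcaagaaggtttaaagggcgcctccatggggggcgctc
ASNS: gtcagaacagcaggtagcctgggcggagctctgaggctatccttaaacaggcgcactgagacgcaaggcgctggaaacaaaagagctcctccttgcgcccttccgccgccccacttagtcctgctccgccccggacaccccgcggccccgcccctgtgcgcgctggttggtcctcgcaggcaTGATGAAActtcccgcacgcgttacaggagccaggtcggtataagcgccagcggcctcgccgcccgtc
ATF3: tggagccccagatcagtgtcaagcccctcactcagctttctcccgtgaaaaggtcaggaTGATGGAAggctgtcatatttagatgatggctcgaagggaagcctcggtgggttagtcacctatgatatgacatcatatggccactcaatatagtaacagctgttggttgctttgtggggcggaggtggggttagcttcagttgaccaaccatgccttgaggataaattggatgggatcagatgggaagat
AARS1: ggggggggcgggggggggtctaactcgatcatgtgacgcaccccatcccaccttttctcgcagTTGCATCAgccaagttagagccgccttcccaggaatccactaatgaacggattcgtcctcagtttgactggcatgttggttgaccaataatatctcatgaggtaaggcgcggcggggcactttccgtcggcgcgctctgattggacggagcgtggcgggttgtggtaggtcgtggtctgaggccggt
The match begins 209 bases before the start of CHAC1, 68 before ASNS, 191 before ATF3 and 187 before AARS1. It reads TGATGAAA in ASNS and TGATGGAA in ATF3, and lies on the other strand, as TTGCATCA, in CHAC1 and AARS1.

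Of 83 tested genes in the lists of ISR factors, ISR effectors, amino acid transporters, amino acid synthesis and cytosolic tRNA synthetases, 63 had a promoter in the RefSeq table. TGATGNAA, searched on both strands from 250 bases before to 50 after the start, was in 20 of these 63 (31.7%). Over all tested genes with a promoter in the table it was in 359 of 12411 (2.89%). The other matches are CARS1, CEBPG, FGF21, GARS1, GOT1, IARS1, JDP2, MARS1, MTHFD1L, NARS1, SLC1A4, SLC1A5, SLC38A1, SLC3A2, SLC7A1 and TARS1. Not all of them rose: SLC38A1 and TARS1 did not pass in labelled cells. The palindrome TGACGTCA, a site of CREB and ATF dimers that cannot overlap the first motif, was in 0 of the 63 promoters and in 442 of the 12411 (3.56%). These counts describe letters in 1 window per gene and say nothing of binding.

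Upstream of the ISR, mRNA changes were small. Of 14 genes for the mitochondrial relay, the eIF2 kinases, eIF2 and its phosphatase subunits, 6 rose and 3 fell, with a median of 0.05. DELE1 was at 56.4, 57.8, 59.0 and 57.1 CPM under antimycin and at 48.7, 48.0, 52.0 and 50.01 CPM in vehicle (0.21 ± 0.04, adjusted p = 7.6e-06). OMA1 had a log2 fold change of -0.05 ± 0.04 that did not pass (adjusted p = 0.328). EIF2AK1 rose by 0.08 ± 0.02, or by 0.12 without vehicle replicate 2. The clear change was in the feedback arm: PPP1R15A, the inducible subunit that directs a phosphatase to eIF2, rose by 0.69 ± 0.05 (adjusted p = 8.41e-22), and its constitutive relative PPP1R15B by 0.30 ± 0.02.

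Effectors of the ISR rose with the factors. Of 20 tested effectors, 14 rose and 1 fell, with a median of 0.56. CHAC1, which degrades glutathione, was at 18.7, 18.8, 21.2 and 16.1 CPM under antimycin and at 2.23, 1.59, 1.99 and 1.39 CPM in vehicle. Its log2 fold change was 3.38 ± 0.12 (adjusted p = 2.88e-31), with every antimycin library far above every vehicle library. SESN2, an inhibitor of mTORC1 signalling, was at 147, 145, 148 and 139 CPM under antimycin and at 58.5, 62.1, 60.2 and 57.4 CPM in vehicle (1.28 ± 0.03, adjusted p = 3.85e-38).

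CTH, which makes cysteine from cystathionine, rose by 0.99 ± 0.04 and DDIT4, another mTORC1 inhibitor, by 0.96 ± 0.04. ULBP1, a ligand of the NK-cell receptor NKG2D, rose by 1.72 ± 0.11. The growth factor gene VEGFA rose by 0.66 ± 0.04. HMOX1, heme oxygenase, was the member that fell (-0.34, adjusted p = 6.24e-10). SLC7A11, the cystine transporter, was at 58.8, 60.6, 59.4 and 58.2 CPM under antimycin and at 60.3, 64.4, 59.3 and 65.3 CPM in vehicle, overlapping groups whose difference did not pass (-0.07 ± 0.04, adjusted p = 0.0749; 0.045 without vehicle replicate 1). The secreted hormone GDF15 had few counts, with 0.225 to 0.389 CPM under antimycin and 0.132 to 0.266 CPM in vehicle, and did not pass (0.94 ± 0.44, adjusted p = 0.0691). It did pass in DESeq2's Wald test (0.0371), without antimycin replicate 2 (0.046) and without vehicle replicate 3 (0.031).

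**Figure D2:**
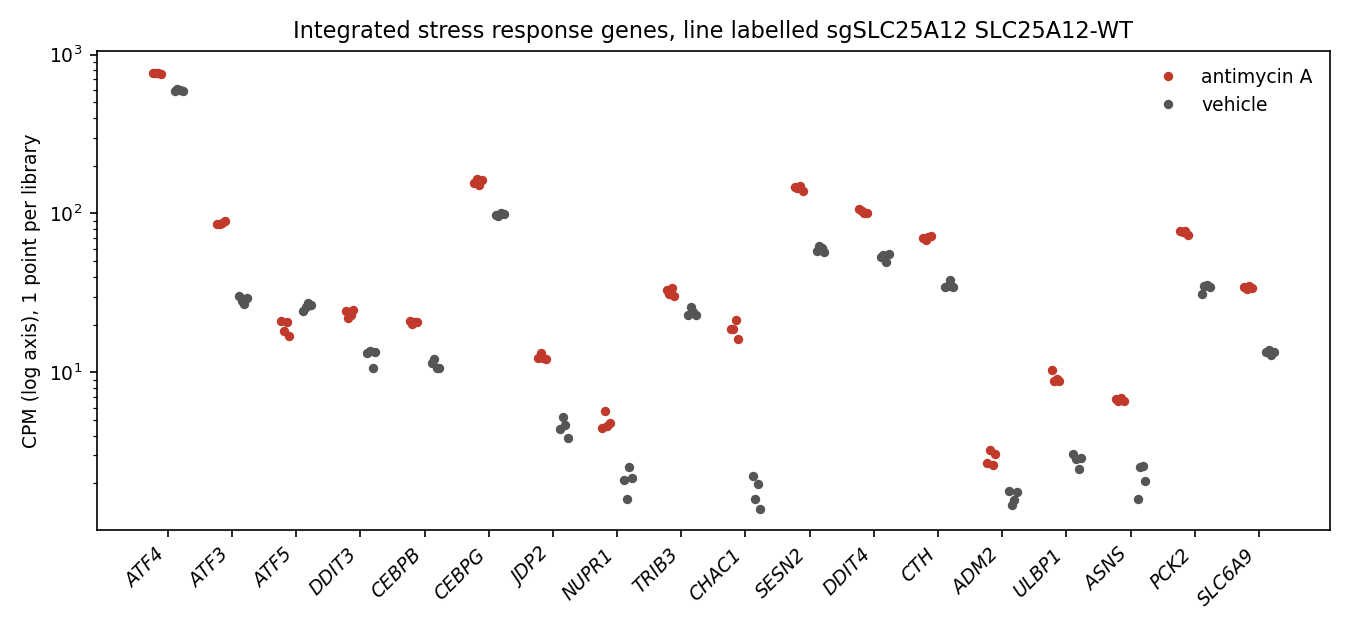
Level of 18 ISR genes in each library of the labelled line, in CPM on a log axis, antimycin A left and vehicle right for each gene, with 1 point per library. The antimycin points lie above the vehicle points for every gene shown other than ATF5, which lies below, and the gap is widest for CHAC1, at 16.1 to 21.2 CPM against 1.39 to 2.23.

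Genes for amino acid supply rose as well. Of 14 transporters, 10 rose and 1 fell, with a median of 0.38. SLC6A9, a glycine transporter, was at 34.6, 33.7, 35.2 and 33.7 CPM under antimycin and at 13.5, 13.9, 12.8 and 13.5 CPM in vehicle (1.35 ± 0.06, adjusted p = 4.01e-33). SLC7A3, a transporter of basic amino acids, rose by 0.92 ± 0.08, and the heterodimer partners SLC7A5 and SLC3A2, which bring in large neutral amino acids, by 0.48 ± 0.03 and 0.50 ± 0.02. SLC7A6 was the member that fell (-0.24 ± 0.04).

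Of 21 tested genes of amino acid and one-carbon synthesis, 13 rose and 6 fell, with a median of 0.25. ASNS, which makes asparagine from aspartate, was at 6.78, 6.57, 6.93 and 6.61 CPM under antimycin and at 1.60, 2.52, 2.59 and 2.08 CPM in vehicle (1.61 ± 0.14, adjusted p = 4.04e-17). Its reads may be shared with the pseudogene ASNSP1. PCK2, mitochondrial PEP carboxykinase, rose by 1.16 ± 0.05. The serine pathway rose at each of its steps, with PHGDH up by 0.41 ± 0.02, PSAT1 by 0.43 ± 0.02 and PSPH by 0.35 ± 0.04. The purine synthesis gene ATIC was among those that fell, by 0.12 on the log2 scale.

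Cytosolic and mitochondrial tRNA synthetases did not move alike. Of 20 cytosolic enzymes, 9 rose and 3 fell (median 0.06). AARS1, for alanine, was at 355, 347, 354 and 345 CPM under antimycin and at 267, 261, 264 and 258 CPM in vehicle (0.42 ± 0.02, adjusted p = 1.98e-29), and GARS1, for glycine, rose by 0.25 ± 0.02. The cysteine enzyme CARS1 rose by 0.94, but in WT-vector cells no cytosolic enzyme rose by more than 0.46. A difference of response from WT-vector cells was called for 0 of the 20. Of 17 mitochondrial enzymes, 1 rose and 9 fell (median -0.07), among them NARS2 (-0.29 ± 0.04) and LARS2 (-0.16 ± 0.02). The difference between the 2 lists was not tested.

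Genes of the endoplasmic reticulum stress response did not rise as a group. Of 20 such genes, 3 rose and 8 fell, with a median of -0.03. HSPA5, the chaperone BiP, was at 1411, 1393, 1385 and 1414 CPM under antimycin and at 1490, 1443, 1369 and 1408 CPM in vehicle, and did not pass (-0.03 ± 0.02, adjusted p = 0.314). DNAJB9, a co-chaperone of BiP, fell to 25.8, 30.2, 27.1 and 25.3 CPM under antimycin, against 38.9, 37.8, 38.1 and 39.0 CPM in vehicle (-0.50 ± 0.05, adjusted p = 2.16e-14). PDIA4, a disulfide isomerase, rose by 0.11 ± 0.02 and the calcium-binding chaperone CALR by 0.15 ± 0.02.

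Cytosolic heat shock genes mostly fell, 11 of 16, while 3 rose (median -0.20). HSPA8, the constitutive HSP70, was at 1439, 1459, 1445 and 1462 CPM under antimycin and at 2043, 2020, 1949 and 1993 CPM in vehicle (-0.46 ± 0.03, adjusted p = 5.85e-17). Its co-chaperone DNAJA1 fell by 0.50 on the log2 scale. The inducible HSP70 genes HSPA1A and HSPA1B fell by 0.44 and 0.29, but they are near-identical copies whose reads may be shared. HSPB1, a small heat shock protein, rose by 0.19 ± 0.04. Of 15 tested genes of mitochondrial proteostasis, 3 rose and 4 fell (median -0.03): the protease LONP1 rose by 0.24 ± 0.03 and GRPEL1, a nucleotide exchange factor of mitochondrial HSP70, fell by 0.35.

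Immediate early genes rose in part. Of 23 tested, 13 rose and 2 fell, with a median of 0.39. JUN, a subunit of the AP-1 factor, was at 552, 544, 565 and 544 CPM under antimycin and at 210, 214, 214 and 215 CPM in vehicle (1.37 ± 0.03, adjusted p = 4.97e-31), and its relative JUND rose by 1.39 ± 0.09. MYC, a driver of growth genes, fell to 109, 107, 114 and 98.0 CPM under antimycin, against 176, 180, 182 and 186 CPM in vehicle (-0.75 ± 0.04, adjusted p = 2.25e-22). EGR1 had a log2 fold change of 0.14 ± 0.16 and did not pass (adjusted p = 0.468).

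Of 15 tested genes of the p53 response and cell death, 10 rose and 1 fell (median 0.27). CDKN1A, the cell cycle inhibitor p21, rose by 0.73 ± 0.07 and BBC3, the pro-apoptotic protein PUMA, by 0.69 ± 0.09, while MDM2, which targets p53 for degradation, fell by 0.11.

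Mitotic genes fell nearly throughout. Of 22, 20 fell and 1 rose, with a median of -0.34. AURKA, a kinase of the spindle poles, was at 71.6, 76.3, 67.8 and 67.3 CPM under antimycin and at 108, 116, 111 and 114 CPM in vehicle (-0.66 ± 0.03, adjusted p = 1.97e-31). PLK1, a mitotic kinase, fell by 0.58 on the log2 scale and CCNB1, cyclin B1, by 0.56. The member that rose was the phosphatase CDC25C (0.14 ± 0.05). In bulk RNA, fewer cells in mitosis and less of these mRNAs per cell cannot be told apart.

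Genes of the G1 to S transition and DNA replication went the other way in part: 10 of 22 rose and 3 fell (median 0.06). E2F1, a transcription factor of S-phase entry, was at 142, 133, 130 and 131 CPM under antimycin and at 87.2, 91.9, 91.5 and 84.0 CPM in vehicle (0.60 ± 0.04, adjusted p = 9.69e-22). POLA1, a subunit of the primase-polymerase complex, fell by 0.36.

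Most nuclear genes of the respiratory chain, whose complex III is the target of antimycin, changed little. Of 37 complex I genes, 14 rose and 2 fell (median 0.09), of 16 complex III and cytochrome c genes 6 rose and 4 fell (median 0.04), and of 29 genes of complexes II, IV and V 10 rose and 3 fell (median 0.05). UQCRC1, a core subunit of complex III, rose by 0.21 ± 0.02 and CYCS, cytochrome c, fell by 0.13. The largest fall among them was that of ATP5F1E, a small subunit of ATP synthase, at 2.23, 1.77, 2.82 and 2.74 CPM under antimycin and at 4.76, 3.98, 4.68 and 4.56 CPM in vehicle (-0.91 ± 0.14, adjusted p = 5.75e-08). It fell in WT-vector (-0.63) and KO-vector cells (-0.55) as well. The highest log2 fold change of a complex I gene was 0.91, but in WT-vector cells none of the 37 was above 0.17. A difference of response from WT-vector cells was called for 0 of these 37. Of 22 genes of the malate-aspartate shuttle and the tricarboxylic acid cycle, 9 rose and 3 fell (median 0.05). SLC25A12 fell by 0.38 ± 0.03 (adjusted p = 9.85e-18), and its paralog SLC25A13 averaged 108 ± 2.05 CPM under antimycin and 129 ± 6.11 CPM in vehicle (SD, n = 4 each; log2 fold change -0.26 ± 0.03, adjusted p = 1.45e-13). IDH2, mitochondrial isocitrate dehydrogenase, rose by 0.41 ± 0.03.

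Glycolytic genes showed no common direction, with 7 of 23 up and 6 down (median 0.01). LDHA, the muscle-type lactate dehydrogenase, fell by 0.17 and ALDOC, a brain-type aldolase, rose by 0.60 ± 0.08. Of 13 tested hypoxia genes, 4 rose and 2 fell (median -0.02), and 3 of those that rose, VEGFA, DDIT4 and NDRG1, are also in the list of ISR effectors. The glucose-sensing arrestins moved apart. ARRDC4 fell to 42.2, 40.5, 40.7 and 43.6 CPM under antimycin, against 82.5, 82.7, 81.2 and 81.0 CPM in vehicle (-0.97 ± 0.04), and TXNIP fell by 0.60. ARRDC3, which directs receptors to degradation, rose to 37.7, 37.8, 39.0 and 35.9 CPM under antimycin, against 17.1, 20.3, 19.5 and 19.9 CPM in vehicle (0.97 ± 0.05).

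Lysosome and autophagy genes rose more often than genes in general, with 14 of 20 up and 3 down (median 0.23), a comparison given without a test. FLCN, which restrains the factors TFEB and TFE3, rose by 0.46 ± 0.04, and the autophagy receptor SQSTM1 by 0.40 ± 0.03, while the FLCN partner FNIP1 fell by 0.48. Of 15 NRF2 targets, 7 rose and 3 fell (median 0.04), led by OSGIN1 (1.96 ± 0.29), which had 1.17 to 1.45 CPM under antimycin and 0.132 to 0.596 CPM in vehicle. The largest log2 fold change among the 15 was only 0.49 in WT-vector and 1.11 in KO-vector cells. A difference of response from WT-vector cells was called for 0 of them. Of 20 genes of sterol and fatty acid synthesis, 8 rose and 5 fell (median 0.09), with IDI1 up by 0.27 ± 0.03 and HMGCS1 down by 0.31. Host genes of small nucleolar RNAs fell in 11 of 15 cases and rose in 0 (median -0.23), led by SNHG3, at 74.3, 73.0, 77.3 and 76.0 CPM under antimycin and 125, 121, 125 and 125 CPM in vehicle (-0.72 ± 0.03, adjusted p = 5.35e-34).

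**Figure D3:**
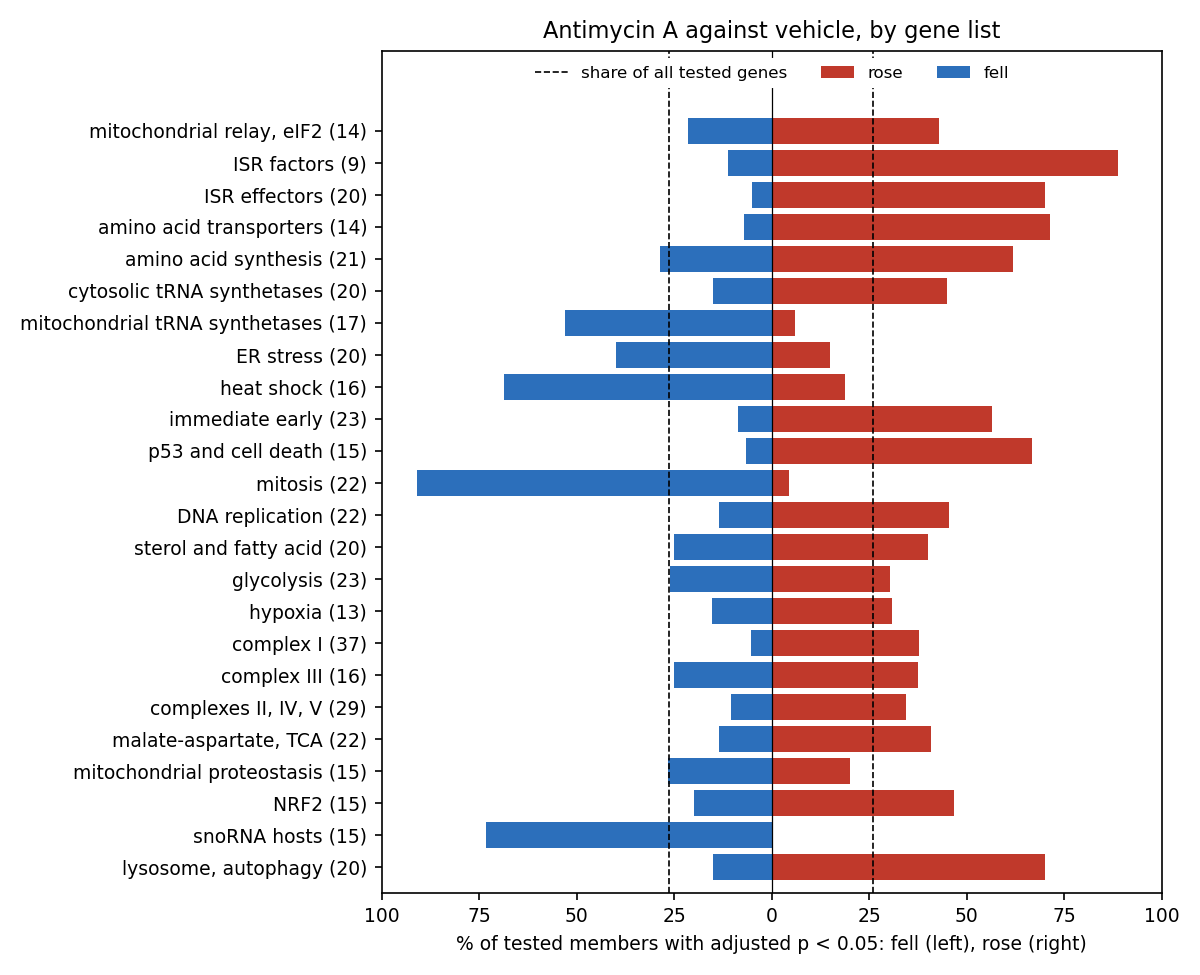
Share of tested members of 24 gene lists that passed an adjusted p < 0.05 for antimycin A against vehicle in the labelled line, with those that rose to the right and those that fell to the left, and the number tested in brackets. The dashed lines mark the shares over all tested genes, 25.9% up and 26.4% down. The bars for ISR factors (8 of 9 up), mitosis (20 of 22 down) and snoRNA hosts (11 of 15 down) reach furthest beyond them.

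Called genes were ranked if their mean was at least 1 on the log2 CPM scale and their libraries did not overlap. Clone, LOC, LINC, MIR and KIAA symbols were left out. The 10 largest rises in this ranking were those of CHAC1, BAIAP3, EPS8L2, ZNNT1, CWC25, ULBP1, GUCA1B, DUSP8, NAPRT and ASNS. BAIAP3, a regulator of vesicle trafficking, was at 14.9, 14.7, 17.6 and 13.5 CPM under antimycin and at 3.23, 3.78, 4.28 and 4.76 CPM in vehicle (1.92 ± 0.11, adjusted p = 1.36e-23). EPS8L2, an actin regulator, rose by 1.80 ± 0.16 and GUCA1B, known as a photoreceptor calcium sensor, by 1.67 ± 0.16. CWC25 spread widely within a group, with 5.04, 12.7, 5.12 and 13.7 CPM under antimycin and 1.77, 3.64, 3.68 and 1.95 CPM in vehicle (1.73 ± 0.61). Its adjusted p of 0.0183 was lost without antimycin replicate 2 or 4 or vehicle replicate 1 or 4.

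The 10 largest falls in the same ranking were those of SNORA73B, SNORD78, GNG13, LNP1, CIRBP-AS1, BFAR, BCDIN3D, SNORA73A, KLRG1 and SNORD44. SNORA73B, a small nucleolar RNA, was at 1.32, 1.13, 1.00 and 1.39 CPM under antimycin and at 4.76, 4.90, 5.08 and 4.66 CPM in vehicle (-2.0 ± 0.15, adjusted p = 3.43e-20). It lies in the SNHG3 gene, so its reads may belong to the host transcript. GNG13, a G-protein gamma subunit, was at 3.42, 2.54, 2.72 and 2.71 CPM under antimycin and at 8.63, 9.44, 9.53 and 7.57 CPM in vehicle (-1.62 ± 0.11, adjusted p = 8.24e-23). CIRBP-AS1 is an antisense gene, and since the strandedness of counting is not given, its reads cannot be told from those of CIRBP. BFAR spread from 5.88 to 17.8 CPM in vehicle, and its call was lost without vehicle replicate 1.

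The response of the labelled cells was set beside that of each other line, every line having its own vehicle libraries. Of the 8760 genes called in labelled cells and 8680 (51.9%) in WT-vector cells, 7279 were called in the same direction (83.1% and 83.9% of the lists) and 1 in the opposite direction. With KO-vector cells, where 8541 genes (51%) were called, 6892 had the same direction (78.7% and 80.7%) and 17 the opposite. With F137S cells, where 8574 genes (51.2%) were called, 6950 had the same direction (79.3% and 81.1%) and 17 the opposite. With dMTS-DELE1 cells, where 5847 genes (34.9%) were called, 4758 had the same direction (54.3% and 81.4%) and 79 the opposite. Across 12853 genes, which are not independent replicates, Pearson's r of the log2 fold changes was 0.90 with WT-vector, 0.86 with KO-vector, 0.85 with F137S and 0.73 with dMTS-DELE1 cells.

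No gene was called different in its response between labelled and WT-vector cells, which does not show that the responses are equal. The test of the difference called 0 genes (0%) in edgeR and 0 in DESeq2, with 756 genes at an unadjusted p < 0.05. CHAC1 rose by 3.38 ± 0.12 in labelled cells and by 3.17 ± 0.12 in WT-vector cells, a difference of 0.20 ± 0.18. The difference was 0.01 ± 0.02 for ATF4, 0.02 ± 0.06 for ATF3 and 0.09 ± 0.05 for SESN2.

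The response differed between labelled and KO-vector cells for 276 genes (1.65%), 118 with a higher and 158 with a lower log2 fold change in labelled cells. The majority of this split changed with the scaling, the filter and single libraries. It was 42.8% higher here, against 57.3% with DESeq2 size factors, 64.3% with no filter on low counts, 53.9% in DESeq2's Wald test and 44.5% to 60.8% with 1 library left out (60.8% without labelled antimycin replicate 2). The count was 180 without KO-vector antimycin replicate 1. Of all tested genes, 0.705% were called higher and 0.944% lower.

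In the ISR lists every called difference in log2 fold change was positive, labelled minus KO-vector. Such differences were called for 5 of 9 ISR factors, 10 of 20 effectors, 8 of 14 amino acid transporters, 6 of 21 synthesis genes and 6 of 20 cytosolic tRNA synthetases. A positive difference was not always a larger rise: HMOX1 fell in both lines, by 0.34 in labelled and 0.59 in KO-vector cells, and SLC7A11, SLC38A1 and TARS1 fell in KO-vector cells and did not pass in labelled cells. The median difference was 0.25 for the factors and 0.21 for the effectors, against -0.01 over all genes. ATF4 was at 763 ± 6.40 CPM under antimycin and 596 ± 6.83 in vehicle in labelled cells, and at 666 ± 18.9 and 634 ± 4.67 CPM in KO-vector cells (SD, n = 4 each). Its response was 0.36 ± 0.02 in labelled and 0.07 ± 0.02 in KO-vector cells, a difference of 0.29 ± 0.02 (adjusted p = 9.54e-15).

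CHAC1 showed the largest difference among the named genes, 1.47 ± 0.18 (adjusted p = 8.44e-08). It was at 18.7 ± 2.09 CPM under antimycin and 1.80 ± 0.381 in vehicle in labelled cells, and at 7.80 and 2.07 CPM in KO-vector cells. JDP2 differed by 0.65 ± 0.13, ULBP1 by 0.72 ± 0.15, SLC6A9 by 0.63 ± 0.09, PCK2 by 0.36 ± 0.07, TRIB3 by 0.33 ± 0.07 and PSPH by 0.30 ± 0.05. For ASNS the difference of 0.66 did not pass (adjusted p = 0.0777), though it did in DESeq2's Wald test (0.0479) and without labelled vehicle replicate 3 (0.0461).

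For some of these genes the lines were apart in vehicle and not under antimycin. SESN2 reached 145 CPM under antimycin in labelled and 146 in KO-vector cells, against 59.5 and 84.7 CPM in vehicle, so that its larger response in labelled cells (difference 0.50 ± 0.05) went with a lower vehicle level. SLC7A11 was at 59.3 CPM under antimycin and 62.3 in vehicle in labelled cells, and at 62.4 and 92.2 CPM in KO-vector cells, where it fell (-0.56 ± 0.03). For CTH, by contrast, vehicle levels were 35.5 CPM in labelled and 33.2 in KO-vector cells, while antimycin levels were 70.5 and 47.9 CPM, a difference of response of 0.46.

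Among the 20 genes of the endoplasmic reticulum stress response, the difference in log2 fold change was called negative for 8, positive for 0 and not called for 12 (median -0.11). DNAJB9 fell in labelled cells (-0.50 ± 0.05), while in KO-vector cells its change of -0.04 ± 0.05 did not pass, a difference of -0.46 ± 0.07 (adjusted p = 6.59e-06). HERPUD1, of the degradation machinery, had 0.01 ± 0.03 in labelled cells and rose by 0.24 ± 0.03 in KO-vector cells (difference -0.23). SDF2L1, PDIA4 and HSPA5 differed by -0.30, -0.19 and -0.16. All 5 stood higher in labelled cells in vehicle: HSPA5 was at 1428 CPM in labelled and 953 in KO-vector cells, and DNAJB9 at 38.4 and 23.9 CPM.

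Outside these lists, DDR2 came after CHAC1 among the positive differences chosen by size (1.19 ± 0.10, adjusted p = 2.19e-14): it did not pass in labelled cells, at 40.2 CPM under antimycin and 37.8 in vehicle, and fell in KO-vector cells, at 2.89 and 6.22 CPM. The lipid phosphatase-related gene PLPPR3 rose by 1.18 ± 0.15 in labelled cells and had 0.08 ± 0.16 in KO-vector cells (difference 1.10 ± 0.22). JUN rose in both lines, by 1.37 and 1.02 (difference 0.35 ± 0.04). Of the lowest differences, that of PSMG3-AS1, an antisense gene whose reads cannot be told from those of PSMG3, was -0.69 ± 0.14 (adjusted p = 0.0016). Those of SLC39A7, RASSF7, RGS20 and TMPRSS9 had an adjusted p between 0.0288 and 0.0489, and each was lost in at least 10 alternatives.

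**Figure D4:**
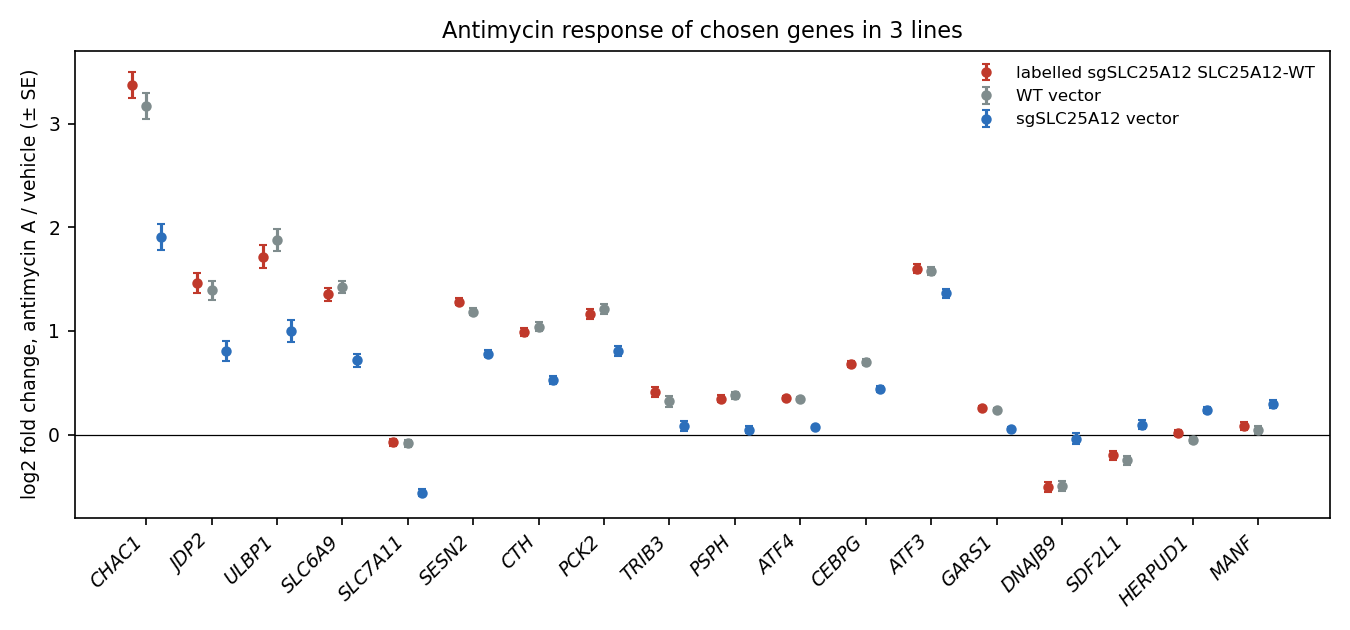
Log2 fold change of antimycin A over vehicle, ± standard error of the fit with n = 4 per group, for 18 genes in the labelled SLC25A12-WT line, WT-vector cells and sgSLC25A12 vector (KO-vector) cells. Labelled and WT-vector points lie together, as for CHAC1 at 3.38 and 3.17, while the KO-vector point is lower for ISR genes (CHAC1 at 1.91) and higher for the last 4 genes, of the endoplasmic reticulum.

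The labelled cells were also set beside the lines that carried an added SLC25A12 cDNA. The medians of the 20 ISR effectors were 0.56 in labelled, 0.59 in WT-vector, 0.22 in KO-vector, 0.24 in F137S and 0.12 in dMTS-DELE1 cells. CHAC1 rose by 1.70 ± 0.12 in F137S cells and by 0.40 ± 0.10 with dMTS-DELE1, where the vehicle level was 18.3 CPM, against 1.80 CPM in labelled cells. The differences from these 2 lines were not tested.

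**Figure D5:**
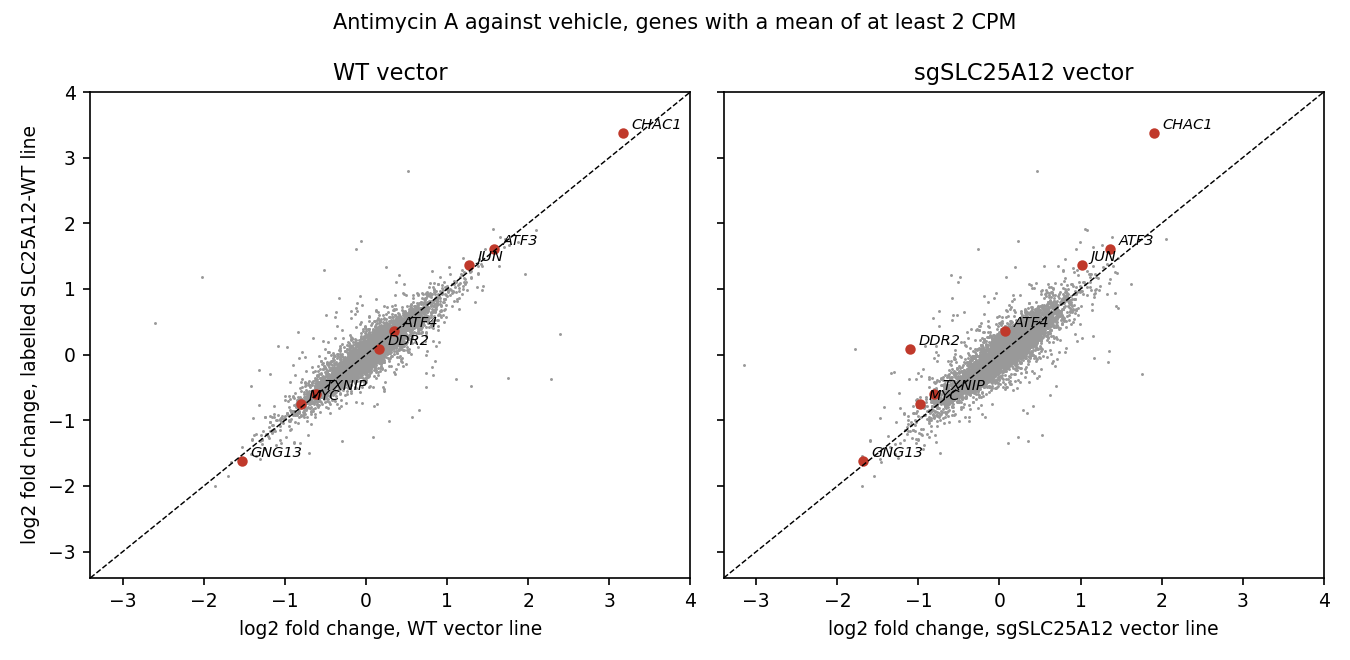
Log2 fold change of antimycin A over vehicle for 12751 genes with a mean of at least 2 CPM, with the labelled SLC25A12-WT line on the vertical axis and WT-vector (left) or sgSLC25A12 vector (right) cells on the horizontal axis, 1 point per gene. The dashed line marks equal responses. CHAC1 at 3.38 and DDR2 at 0.09 lie near the line on the left and above it on the right, where KO-vector cells have 1.91 and -1.10.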

How the data were processed

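Messenger RNA of 40 HEK293T libraries was read as poly(A)-selected paired-end RNA-seq, per the labels' protocols. The authors deposited 1 table of raw counts per gene symbol (28278 symbols). The submitters' processing notes name HISAT2 2.1.0, featureCounts 2.0.6 and hg38, with no statement of strandedness. All libraries were fitted with 1 coefficient per group in edgeR 4.0.16 (R 4.3.3) with its default low-count filter, TMM scaling and the robust quasi-likelihood test, and p-values were Benjamini-Hochberg adjusted over 16739 genes. A call is an adjusted p < 0.05. The script was tested on simulated data. Alternatives used DESeq2 1.42.0, no filter, other sample sets, a replicate block, thinned counts and leaving out each library. Named genes are the largest changes among genes with a mean of at least 1 on the log2 CPM scale, plus list members. Clone, LOC, LINC, MIR and KIAA symbols were left out when the largest changes were picked. The members and lists were chosen with earlier results of these data known. Library totals were 30.7 to 32.0 in units of 1e6 counts.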

Additional observations from a re-analysis of the deposited data

Results flagged for a closer look

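In 98 groups of 4 libraries, from 48 genes and the library totals, 3 held a library far from the rest, where chance gives about 1 in 20. DDIT3 in vehicle replicate 3 was at 10.7 CPM, against 13.3 to 13.6 CPM in the others. GDF15 in the same library was at 0.266 CPM, against 0.132 to 0.133 CPM. EPS8L2 in antimycin replicate 2 was at 7.18 CPM, against 5.57 to 5.74 CPM.

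The response to antimycin differed between labelled and KO-vector cells for 276 genes, by the test of the difference itself in edgeR. Positive log2 differences (labelled minus KO-vector) were those of CHAC1 (1.47), DDR2 (1.19), PLPPR3 (1.10), BAIAP3 (0.86) and CRIP2 (0.80). The CRIP2 call was lost without KO-vector vehicle replicate 2 or labelled vehicle replicate 2. Among ISR factors they were those of JDP2 (0.65), TRIB3 (0.33), ATF4 (0.29), CEBPG (0.25) and ATF3 (0.24). Among effectors they were those of ULBP1 (0.72), SESN2 (0.50), SLC7A11 (0.49) and CTH (0.46). For amino acid supply and tRNA charging they were those of SLC6A9 (0.63), PCK2 (0.36), PSPH (0.30), GARS1 (0.20) and MARS1 (0.16), and JUN, an immediate early gene, had 0.35. Negative differences were those of SLC39A7 (-1.22), RASSF7 (-0.77), RGS20 (-0.73), PSMG3-AS1 (-0.69) and TMPRSS9 (-0.62). The calls of SLC39A7, RASSF7, RGS20 and TMPRSS9 were each lost in many alternatives. PSMG3-AS1 is antisense, and its reads cannot be told from those of PSMG3. Among endoplasmic reticulum genes the negative differences were those of DNAJB9 (-0.46), SDF2L1 (-0.30), HERPUD1 (-0.23), PDIA4 (-0.19) and HSPA5 (-0.16).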

How the results depend on the processing

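Of 398 named gene results, 340 kept their side of the threshold under every alternative other than the 2-fold call, 58 changed side in at least 1, and 0 reversed. Requiring a 2-fold change left 546 genes for the response, 15 for its difference from KO-vector cells and 568 for labelled against KO-vector cells in vehicle. With only the compared groups fitted, 1 gene differed between labelled and WT-vector cells in vehicle. Leaving out 1 library at a time gave 8188 to 8490 genes for the response, 180 to 247 for the difference from KO-vector cells (180 without KO-vector antimycin replicate 1) and 7512 to 7639 for labelled against KO-vector cells in vehicle. It gave 0 throughout for both comparisons with WT-vector cells. Same-numbered libraries of the labelled line had residual correlations of -0.01 to 0.05, and the own number was the best partner in 2 of 4 pairs. These values do not settle whether the libraries were paired. A replicate block gave 8741, 248 and 7960 genes for those 3 comparisons and 0 for both with WT-vector cells. AARS1's difference from KO-vector cells was lost without KO-vector antimycin replicate 1 (adjusted p = 0.0554), KO-vector vehicle replicate 1 (0.0643) or labelled vehicle replicate 4 (0.0833), and the cause was not tested. Halving all counts gave 267 genes for that difference.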

Other observations

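Counts at genes of small nucleolar RNAs, which guide modification of ribosomal RNA, fell as a family chosen after its values were seen. The libraries were poly(A)-selected, and these reads may belong to host transcripts, which was not tested. In labelled cells 124 of 209 fell and 0 rose, with a median of -0.65, against 0.01 over all genes. In WT-vector cells 120 fell and 1 rose, and in KO-vector cells 135 fell and 2 rose, and the response differed between labelled and KO-vector cells for 0 of them in edgeR. Mitochondrial ribosomal protein genes fell in 28 of 77 cases and rose in 13 (median -0.05). Cytosolic ribosomal protein genes rose in 27 of 83 and fell in 9 (median 0.05). Over all tested genes 26.4% fell and 25.9% rose, and neither family was tested against these shares. Replication-dependent histone genes gave 1 up and 1 down of 30.

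A set of 53 genes spread at least 4-fold among the 4 libraries of a labelled group whose highest library had at least 4 CPM. Of these, 1 was called in the response and 3 are list members. On chromosome 6 lie 10 of them, with starts from 28903002 (TRIM27) to 33416442 (CUTA). The share of all genes on that chromosome was not computed.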
